A study of Mus musculus with 10 samples.

Results

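The genes of serotonin synthesis, transport and breakdown are the 8 genes *Tph1*, *Tph2*, *Ddc*, *Slc6a4*, *Slc18a1*, *Slc18a2*, *Maoa* and *Maob*. They were chosen by symbol from the platform annotation, and each was read from 1 probe set that carries its symbol alone (the brightest over all 10 arrays), among 19937 genes measured in this way. All 8 had a value on every array. The first group is *Sox10*-H2BVenus+ sacral neural crest progenitors (NCPs) at embryonic day 13, sorted by FACS for the fluorescent H2BVenus protein from dissociated lower urogenital tract of transgenic mice, with 3 arrays, and the second is total embryo RNA with 7 arrays. The transgene follows *Sox10*, so sorted cells can include glia and young neurons as well as progenitors, and each sample pooled tissue of several fetuses. The labels give neither the stage nor the genotype of the total embryo RNA, and the protocol text describing tissue from the transgenic line is attached to both groups. Values are log2 intensities after robust Multi-Array Average (RMA) normalization.

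Serotonin is made from the amino acid tryptophan in a pair of steps. A tryptophan hydroxylase adds a hydroxyl group, with tetrahydrobiopterin as cofactor, and aromatic L-amino acid decarboxylase removes the carboxyl group. The amine is packed into vesicles by a vesicular monoamine transporter, taken back across the cell membrane by the serotonin transporter, and oxidized at the outer mitochondrial membrane by monoamine oxidase. In the adult, most serotonin of the body is made by enterochromaffin cells of the gut and carried by platelets, while neurons of the raphe nuclei make that of the brain.

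Promoter sequence is shown for *Tph2*, the member with the largest increase in NCPs, and for *Maoa*, a member that was lower, so that their upstream letters can be set side by side. RefSeq sequence (GRCm38.p6), from 250 bases before to 50 bases after an annotated start, was listed for 6 of the 8 genes, in 8 windows. Capitals mark matches to 4 motifs, searched on both strands, and no match overlapped another. The TATA box was searched as TATAAA. For the GC box the letters searched were GGGCGG. The cAMP response element, bound by CREB, was searched for as TGACGTCA. The fourth motif, bound by NF-Y, was CCAAT. The *Tph2* window is chr10:115184973-115185272 on the minus strand and the *Maoa* window chrX:16619448-16619747 on the plus strand.
Tph2: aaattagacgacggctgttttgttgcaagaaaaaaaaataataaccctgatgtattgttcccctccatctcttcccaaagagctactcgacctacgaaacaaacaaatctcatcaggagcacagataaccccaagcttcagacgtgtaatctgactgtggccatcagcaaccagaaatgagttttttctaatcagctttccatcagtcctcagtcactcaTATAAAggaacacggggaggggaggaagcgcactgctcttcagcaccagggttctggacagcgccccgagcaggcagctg
Maoa: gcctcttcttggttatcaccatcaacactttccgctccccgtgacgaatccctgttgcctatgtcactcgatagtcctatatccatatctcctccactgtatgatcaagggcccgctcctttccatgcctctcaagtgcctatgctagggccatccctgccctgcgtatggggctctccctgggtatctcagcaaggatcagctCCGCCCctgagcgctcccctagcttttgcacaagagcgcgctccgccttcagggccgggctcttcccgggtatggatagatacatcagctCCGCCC

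The *Tph2* window held 1 TATA box and none of the other motifs, and the *Maoa* window held 2 GC boxes and none of the others. Of 32851 windows of this length in the RefSeq table, 13.6% held a TATA box, 35.7% a GC box, 37.4% the NF-Y motif and 1.79% a cAMP response element. *Slc6a4* held 3 GC boxes and *Slc18a2* held 2 GC boxes and the only cAMP response element among these genes. *Tph1* held 2 GC boxes and 1 NF-Y motif in the second of its 2 windows, and *Ddc* held 1 TATA box in the first and 1 NF-Y motif in the second of its windows. A match is a run of letters and was not tied to binding or to the changes below.

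The 10 arrays differed in range, and this touches every gene below. The SD of all probe sets was 0.97 to 1.13 on the NCP arrays and 1.78 to 1.91 on the total embryo arrays, and genes at low level in total embryo were mostly higher in NCPs and genes at high level mostly lower. The 1208 probe sets of olfactory and vomeronasal receptor families, which few tissues use, served as a floor, and a gene was called above the floor on an array where it exceeded their 95th percentile there (6.65 to 6.88 on NCP arrays, 5.30 to 5.49 on total embryo arrays). The median of 8 housekeeping genes stood 2.26, 0.62 and 3.89 above the floor's median on NCP replicates 1, 2 and 3, against 6.81 to 7.35 on the total embryo arrays. The NCP arrays thus differed among themselves, with replicate 2 lowest and replicate 3 highest. *Sox10* averaged 7.56 ± 0.40 in NCPs and 6.56 ± 0.09 in total embryo (SD, n = 3 and 7; limma adjusted p = 2.8e-04). Of the 6 neural crest markers measured, *Sox10* among them, 3 were higher (also *Cdh19* and *Foxd3*), against 39.6% of all probe sets. Another 2 were lower (*Erbb3* at -1.20 and *Ednrb* at -1.35), against 27.5% of all probe sets, and *S100b* did not pass (0.43). *Cdh19* was above the floor on 0 of 3 NCP arrays and 0 of 7 total embryo arrays. After level adjustment *Sox10* and *Foxd3* were higher and *Erbb3* lower, against 10.3% of all probe sets higher and 8.29% lower. The 7 liver markers measured averaged 5.84 to 6.54 in NCPs and 11.10 to 13.19 in total embryo, with none above the floor on all NCP arrays. The sample titles hold 2 codes for the total embryo arrays (4 and 3 arrays) and 3 for the NCP arrays, so p-values measure the spread between arrays, which can be technical. The codes of all NCP arrays and of 3 total embryo arrays belong to 1 title series, and only 1 total embryo array shares the number that ends the NCP titles (the title ending).

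In NCPs, 3 of the 8 genes were higher than in total embryo (*Tph1*, *Tph2* and *Slc18a1*), 2 were lower (*Maoa* and *Maob*) and 3 did not pass the test (*Ddc*, *Slc6a4* and *Slc18a2*; limma with Benjamini-Hochberg adjustment over 28192 probe sets, threshold 0.05). Of all probe sets tested, 39.6% were higher and 27.5% lower, and the shares among the 8 genes are to be read against these. Centring the arrays on the receptor families, which put the median of all probe sets at -1.47, left 1338 probe sets higher and 21976 lower and turned *Tph1* (-0.49) and *Slc18a1* (-0.52) to lower, as it turned *Sox10* (-0.69). The 3 higher genes had all NCP arrays above all total embryo arrays, as did 31.8% of all probe sets, and the 2 lower genes had all NCP arrays below, as did 21.5%. The median log2 fold change was -0.09 over the 8 genes and 0.23 over all probe sets. With 1 mean per gene it was 0.089 over 19937 genes. In bulk RNA such as this, fewer cells that hold a transcript and less transcript per cell cannot be told apart.

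Because the change depended on level, each gene was also set against the 500 genes nearest to it in mean total embryo level, and the fit was repeated after level adjustment, in which each array's smooth trend (lowess) of its difference from the total embryo mean was subtracted. After level adjustment 10.3% of all probe sets were higher and 8.29% lower, and of the 8 genes none was higher and 1, *Maob*, was lower. Leaving NCP replicate 2 out of that fit, an alternative chosen after seeing the data, made *Tph2* (0.97, adjusted p = 0.0016) and *Slc18a1* (0.58, adjusted p = 0.046) higher as well. Calls rose in general there, with 3856 of 28192 probe sets higher and 3459 lower, against 2903 and 2336 with all arrays. Both genes were above the floor on 0 of 3 NCP arrays and 0 of 7 total embryo arrays. The 3 higher and 2 lower genes of the fit without adjustment kept their calls without NCP replicate 2, at 1.26 for *Tph1*, 2.45 for *Tph2*, 1.33 for *Slc18a1*, -1.34 for *Maoa* and -2.18 for *Maob*.

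**Figure D1:**
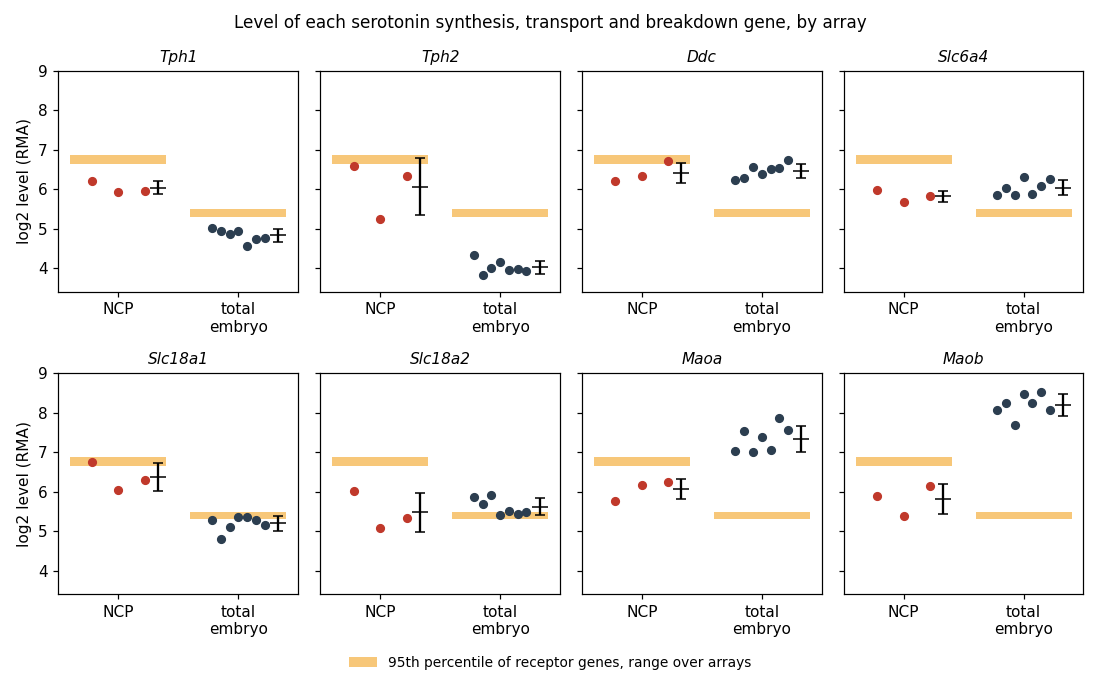
Log2 RMA level of each of the 8 genes (vertical axis) on the 3 NCP arrays (left, red) and the 7 total embryo arrays (right, dark), 1 point per array with the mean and SD beside them, and the range over arrays of the 95th percentile of receptor family probe sets as a band. The NCP points of *Maoa* and *Maob* lie under the total embryo points and under the NCP band, and those of *Tph1*, *Tph2* and *Slc18a1* lie above the total embryo points but not above the band, except that *Slc18a1* reaches it on replicate 1.

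*Tph1* encodes the tryptophan hydroxylase of enterochromaffin and other peripheral cells (probe set 10563570). It measured 6.22, 5.92 and 5.96 on NCP replicates 1, 2 and 3, against a lowest value of 4.55, a median of 4.86 and a highest of 5.01 on the total embryo arrays. All NCP arrays were above all total embryo arrays, and the NCP values lay close together. This was a log2 fold change of 1.21 (SE 0.16, 95% interval 0.86 to 1.55, limma adjusted p = 2.5e-05). Genes of like level moved in the same direction: 440 of the 500 neighbours (88.0%) were higher in NCPs, their median change was 1.01, and *Tph1* stood at their 69.2nd percentile. After level adjustment the change was 0.18 (95% interval -0.15 to 0.52, adjusted p = 0.44). *Tph1* was above the floor on 0 of 3 NCP arrays and 0 of 7 total embryo arrays.

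*Tph2* encodes the tryptophan hydroxylase of serotonergic neurons (probe set 10372443). Its levels were 6.59, 5.23 and 6.34 on NCP replicates 1, 2 and 3, against 3.83 (lowest), 3.98 (median) and 4.32 (highest) in total embryo. The groups did not overlap, and NCP replicate 2 was more than 1 log2 unit under the other NCP arrays. The log2 fold change of 2.03 (SE 0.25, 95% interval 1.49 to 2.58, adjusted p = 1.5e-05) was the largest increase among the 8 genes. Of its 500 level neighbours, 97.8% were higher in NCPs with a median of 1.51, and *Tph2* stood at the 86.6th percentile. On single arrays it exceeded its neighbours' median by 1.04 on NCP replicate 1 and by 0.90 on replicate 3, and lay 0.40 under it on replicate 2. The level-adjusted change was 0.50 (95% interval -0.10 to 1.09, adjusted p = 0.23), and *Tph2* was above the floor on 0 of 3 NCP arrays and 0 of 7 total embryo arrays.

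*Ddc* encodes aromatic L-amino acid decarboxylase, which makes serotonin and also dopamine (probe set 10384378). It measured 6.21, 6.35 and 6.70 on NCP replicates 1, 2 and 3, and 6.22 (lowest), 6.50 (median) and 6.74 (highest) in total embryo. The groups overlapped over nearly their whole range. Their difference was -0.04 log2 units (SE 0.17, 95% interval -0.41 to 0.33, adjusted p = 0.84), an interval that leaves differences of either sign possible. Its neighbours' median was -0.13 and *Ddc* stood at their 56.4th percentile. *Ddc* was above the floor on 7 of 7 total embryo arrays and, alone among the 8 genes, on an NCP array (replicate 3).

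For the synthesis enzymes, the values against total embryo arrays of the NCPs' own title series (3 arrays) were 1.13 for *Tph1* (adjusted p = 0.0060), 2.03 for *Tph2* (adjusted p = 0.0034) and 0.0045 for *Ddc* (adjusted p = 0.99). Both hydroxylases thus kept their calls within that title series, while neither kept its call against the single total embryo array that shares the NCPs' title ending (1.02 with adjusted p = 0.29 for *Tph1* and 1.74 with adjusted p = 0.15 for *Tph2*). That fit had 1 total embryo array, which was assumed to vary like the NCP arrays.

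*Slc18a1* encodes the vesicular monoamine transporter of neuroendocrine and chromaffin cells, VMAT1 (probe set 10579023). Its levels were 6.75, 6.04 and 6.31 on NCP replicates 1, 2 and 3, against 4.81 (lowest), 5.28 (median) and 5.37 (highest) in total embryo. No total embryo array reached the lowest NCP array. The log2 fold change was 1.17 (SE 0.19, 95% interval 0.76 to 1.58, adjusted p = 1.4e-04), 70.0% of its level neighbours were higher with a median of 0.78, and it stood at their 83.2nd percentile. After level adjustment the change was 0.39 (95% interval -0.04 to 0.81, adjusted p = 0.19). *Slc18a1* was above the floor on 0 of 3 NCP arrays and 0 of 7 total embryo arrays, its NCP replicate 1 lying just under the 95th percentile of the receptor probe sets.

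*Slc18a2* encodes VMAT2, the vesicular transporter of monoamine neurons, mast cells and platelets (probe set 10464370). It measured 6.03, 5.07 and 5.33 on NCP replicates 1, 2 and 3, and 5.40 (lowest), 5.50 (median) and 5.92 (highest) in total embryo. NCP replicate 1 was above every total embryo array and the other NCP arrays were below every one. The mean change was -0.14 log2 units (SE 0.21, 95% interval -0.60 to 0.33, adjusted p = 0.58). Genes of like level had a median change of 0.49, 49.0% of them were higher and 5 of the 500 lower, and *Slc18a2* stood at their 5.40th percentile, the lowest of the 8 genes. After level adjustment *Slc18a2* was at -0.64 (95% interval -1.1 to -0.17, adjusted p = 0.057). In alternatives added after seeing the data, that value was -0.91 without NCP replicate 1 (adjusted p = 0.0069). It was -0.43 without replicate 2 (adjusted p = 0.17) and -0.57 without replicate 3 (adjusted p = 0.12). It was -0.65 with the same title series (adjusted p = 0.36) and -0.64 averaged per title code (adjusted p = 0.63). Probe sets called lower numbered 2990 of 28192 without NCP replicate 1, against 2336 with all arrays. *Slc18a2* was above the floor on 0 of 3 NCP arrays and 7 of 7 total embryo arrays.

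*Slc6a4* encodes the serotonin transporter of the cell membrane, SERT (probe set 10378816). It measured 5.97, 5.68 and 5.82 on NCP replicates 1, 2 and 3, and 5.85 (lowest), 6.02 (median) and 6.32 (highest) in total embryo. NCP replicate 1 lay within the total embryo range and the other NCP arrays under it. NCPs differed from total embryo by -0.21 log2 units (SE 0.17, 95% interval -0.57 to 0.15, adjusted p = 0.27), against a neighbour median of 0.17, and *Slc6a4* stood at the 16.4th percentile. On each NCP array it lay under its neighbours' median, by 0.28, 0.48 and 0.38 on replicates 1, 2 and 3. The level-adjusted change was -0.42 (95% interval -0.76 to -0.08, adjusted p = 0.081), and *Slc6a4* was above the floor on 0 of 3 NCP arrays and 7 of 7 total embryo arrays.

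Against the total embryo arrays of the same title series the transporter changes were 1.28 for *Slc18a1* (adjusted p = 0.0075), -0.21 for *Slc18a2* (adjusted p = 0.61) and -0.22 for *Slc6a4* (adjusted p = 0.49). Against the single array of the same title ending, *Slc18a1* no longer passed (1.07, adjusted p = 0.28). For *Slc18a2* and *Slc6a4*, normalizing all arrays again to 1 distribution of values turned the result into a call, at -0.87 (adjusted p = 0.048) for *Slc18a2* and -0.55 (adjusted p = 0.0315) for *Slc6a4*.

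*Maoa* encodes monoamine oxidase A, which prefers serotonin and noradrenaline (probe set 10598771). It measured 5.78, 6.17 and 6.25 on NCP replicates 1, 2 and 3, against 7.01 (lowest), 7.38 (median) and 7.87 (highest) in total embryo. All NCP arrays were below all total embryo arrays. It fell, with a log2 fold change of -1.28 (SE 0.22, 95% interval -1.75 to -0.82, adjusted p = 1.9e-04). Of the 500 level neighbours 79.6% were lower, with a median of -0.98, and *Maoa* stood at their 26.2nd percentile. The level-adjusted change was -0.36 (95% interval -0.82 to 0.09, adjusted p = 0.25). *Maoa* was above the floor on 0 of 3 NCP arrays and 7 of 7 total embryo arrays.

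*Maob* encodes monoamine oxidase B, which prefers phenylethylamine and is found in serotonergic neurons and astrocytes of the adult brain (probe set 10603746). It measured 5.89, 5.40 and 6.14 on NCP replicates 1, 2 and 3, against 7.69 (lowest), 8.25 (median) and 8.52 (highest) in total embryo. The gap between the groups was wider than the range within either of them. The log2 fold change was -2.38 (SE 0.22, 95% interval -2.85 to -1.92, adjusted p = 1.1e-06), the largest change among the 8 genes. Its neighbours fell too, 92.4% of them being lower with a median of -1.73, and *Maob* stood at their 8.60th percentile.

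*Maob* lay under its neighbours' median on every NCP array, by 0.57, 0.92 and 0.52 on replicates 1, 2 and 3, while on the total embryo arrays the gap ran from -0.49 to 0.29. After level adjustment the change was -0.77 (95% interval -1.17 to -0.36, adjusted p = 0.014). In that fit the call held when any 1 NCP array was left out (-0.65 to -0.86, adjusted p from 0.012 to 0.033). It did not hold against the total embryo arrays of the same title series alone (-0.76, adjusted p = 0.17) or with arrays averaged per title code (-0.77, adjusted p = 0.44). *Maob* was above the floor on 0 of 3 NCP arrays and 7 of 7 total embryo arrays. *Maoa* and *Maob* are neighbouring protein-coding genes in RefSeq.

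Without level adjustment, both oxidases kept their calls against the total embryo arrays of the same title series (-1.31, adjusted p = 0.0057 for *Maoa*, and -2.33, adjusted p = 4.9e-04 for *Maob*). Against the single array of the same title ending neither did (-0.96, adjusted p = 0.32, and -2.27, adjusted p = 0.064).

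**Figure D2:**
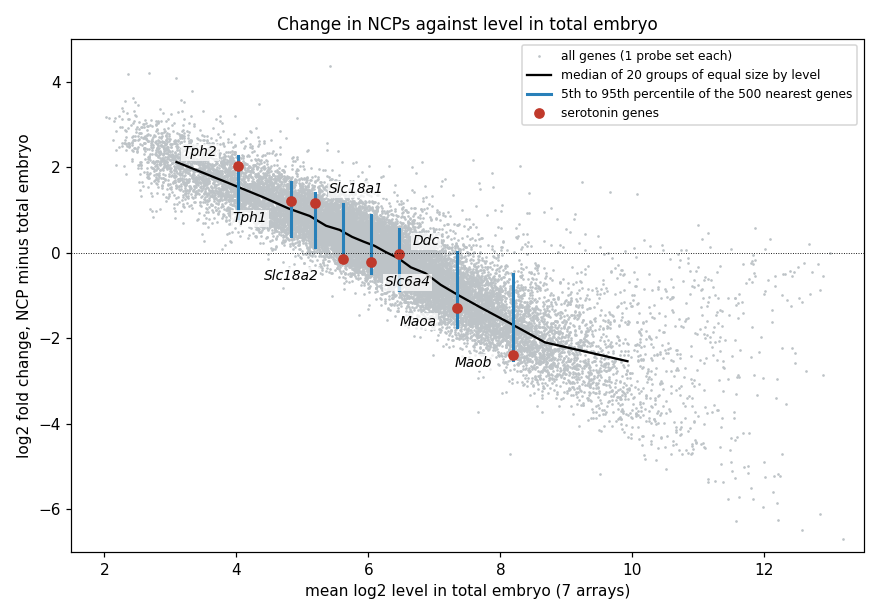
Log2 fold change of NCP over total embryo (vertical axis) plotted on the mean total embryo log2 level (horizontal axis) for all genes (grey), with the median of 20 groups of equal size by level (line), the 8 serotonin genes (red) and the 5th to 95th percentile of the 500 genes nearest to each in level (blue bars). The 20 medians fall from 2.12 at the lowest level to -2.54 at the highest, and each of the 8 genes but *Slc18a2*, at the 5.40th percentile, and *Maob*, at the 8.60th, lies well inside its bar.

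**Figure D3:**
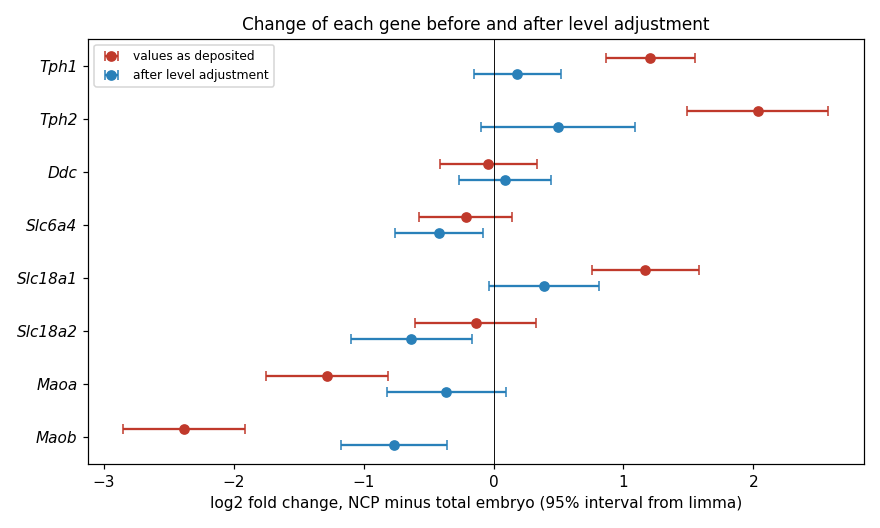
Log2 fold change of NCP over total embryo (horizontal axis) of the 8 genes, with 95% intervals from limma, for the values as deposited (red) and after level adjustment (blue). The 5 genes that passed as deposited lie between -2.38 and 2.03, and after adjustment all 8 lie between -0.77 and 0.50.

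On the NCP arrays none of the 8 genes was above the floor on all 3 arrays, as were 2049 of 28192 probe sets (7.27%). On the total embryo arrays 5 of the 8 (*Ddc*, *Slc6a4*, *Slc18a2*, *Maoa* and *Maob*) were above it on all 7, as were 16260 probe sets (57.7%). With the floor at the 99th percentile of the receptor probe sets the total embryo count was 3. The increases of *Tph1*, *Tph2* and *Slc18a1* were thus between levels that did not exceed the floor in either group, and 1157 of the 1208 receptor probe sets were themselves higher in NCPs, with a median log2 fold change of 1.66.

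The cofactor of the hydroxylases was described from 7 tetrahydrobiopterin genes. All 7 fell in NCPs, with a median log2 fold change of -1.17, against 27.5% of all probe sets, and none passed after level adjustment. *Pcbd2*, a recycling enzyme, was at 7.90 in NCPs and 10.06 in total embryo (-2.16, adjusted p = 6.7e-05, but 0.22 after level adjustment), and its relative *Pcbd1* at 6.50 in NCPs and 8.41 in total embryo (-1.91, adjusted p = 7.5e-04). *Gch1*, the rate-limiting enzyme of the pathway, was among the 7. Normalizing the arrays again to 1 distribution left 4 of them lower and cyclic loess 2. *Pdxk* and *Pdxp*, kinase and phosphatase of the pyridoxal phosphate that *Ddc* needs, did not pass (0.05 and 0.04).

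Tryptophan supply and its other fate gave mixed directions. Of 4 uptake genes, *Slc3a2* (-1.68) and *Slc7a5* (-1.35), the chains of the large neutral amino acid transporter, fell, against 27.5% of all probe sets. The other 2 did not pass. Neither call held under cyclic loess (-0.13 for *Slc3a2*, 0.05 for *Slc7a5*) or after level adjustment (-0.04 for *Slc3a2*, 0.09 for *Slc7a5*). Of 6 genes of the kynurenine route, which competes for tryptophan, 3 rose (against 39.6% of all probe sets), 2 fell (against 27.5%) and 1 did not pass. The rises were led by *Ido1* (1.57) and *Ido2* (1.03), both of which turned negative (-0.12 and -0.66) under receptor family centring. Both were above the floor on 0 of 3 NCP arrays and 0 of 7 total embryo arrays. The genes that fell were *Kynu* (-1.57) and *Kmo* (-1.06). After level adjustment *Kynu* (-1.01, adjusted p = 0.016) and *Kmo* (-0.87, adjusted p = 0.0093) were still lower, against 8.29% of all probe sets. None of the 6 was higher, against 10.3%.

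Of 7 genes of further monoamine breakdown 6 fell, against 27.5% of all probe sets, and *Sult1a1*, a sulfotransferase, did not pass (-0.07). That share depends on level, and of the 500 genes nearest *Maoa* in total embryo level 79.6% were lower. The list had 2 lower genes after level adjustment and 2 under cyclic loess. *Akr1a1*, an aldehyde reductase, was at 8.24 in NCPs and 10.72 in total embryo (-2.47, adjusted p = 9.2e-07), and *Aldh1a1*, an aldehyde dehydrogenase, at 4.59 in NCPs and 6.98 in total embryo (-2.39, adjusted p = 1.1e-06). After level adjustment *Aldh1a1* (-1.80, adjusted p = 2.6e-04) and *Aldh2* (-0.94, adjusted p = 0.0026) were lower, *Sult1a1* was higher (0.57, adjusted p = 0.038) and *Akr1a1* was at 0.02, its sign turned. *Aanat*, the acetyltransferase that turns serotonin towards melatonin, did not pass (0.44).

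Of 4 other monoamine uptake genes, *Slc6a2*, the noradrenaline transporter, rose (1.28, adjusted p = 3.3e-04), against 39.6% of all probe sets, and 3 did not pass. *Slc6a2* was above the floor on 1 of 3 NCP arrays and 0 of 7 total embryo arrays. The catecholamine enzymes, which share *Ddc* with serotonin synthesis, all rose, as did 39.6% of all probe sets, *Dbh* by 0.92, *Pnmt* by 0.72 and *Th* by 0.58, and each was above the floor on 0 of 3 NCP arrays. Centring on the receptor families turned these 4 genes negative, at -0.41 for *Slc6a2*, -0.78 for *Dbh*, -0.97 for *Pnmt* and -1.12 for *Th*, and none of them passed after level adjustment. Of 7 transcription factor genes of serotonergic neurons, *En2* (adjusted p = 0.0048) and *Nkx2-2* (0.56) rose, against 39.6% of all probe sets, and 5 did not pass. *En2* and *Nkx2-2* were negative (-0.59 and -1.13) under that centring. After level adjustment *Gata3* alone was higher (0.54, adjusted p = 0.045), against 0.18 (adjusted p = 0.39) as deposited. The paper names *Gata3* among factors of autonomic neurogenesis, so it is not particular to serotonergic neurons.

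Of the 14 serotonin receptor genes 7 rose (against 39.6% of all probe sets), 1 fell (against 27.5%) and 6 did not pass, with a median of 0.57, which was -1.12 under receptor family centring. The largest increases were *Htr3a* (1.48), a subunit of the ion channel receptor, and *Htr7* (1.39), both negative (-0.22 and -0.31) under that centring, and *Htr2b* fell by 1.28. *Htr3a* and *Htr7* were above the floor on 0 of 3 NCP arrays and 0 of 7 total embryo arrays. None of the 14 genes was above it on all NCP arrays, as were 7.27% of all probe sets. After level adjustment none rose and 3 were lower (against 8.29% of all probe sets), *Htr5a* (-0.86), *Htr1a* (-0.68) and *Htr2b* (-0.64). As deposited *Htr5a* was at 0.25 and *Htr1a* at -0.11, neither past the test, so the sign of *Htr5a* turned. *Htr5a* was above the floor on 0 of 3 NCP arrays and 0 of 7 total embryo arrays.

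**Figure D4:**
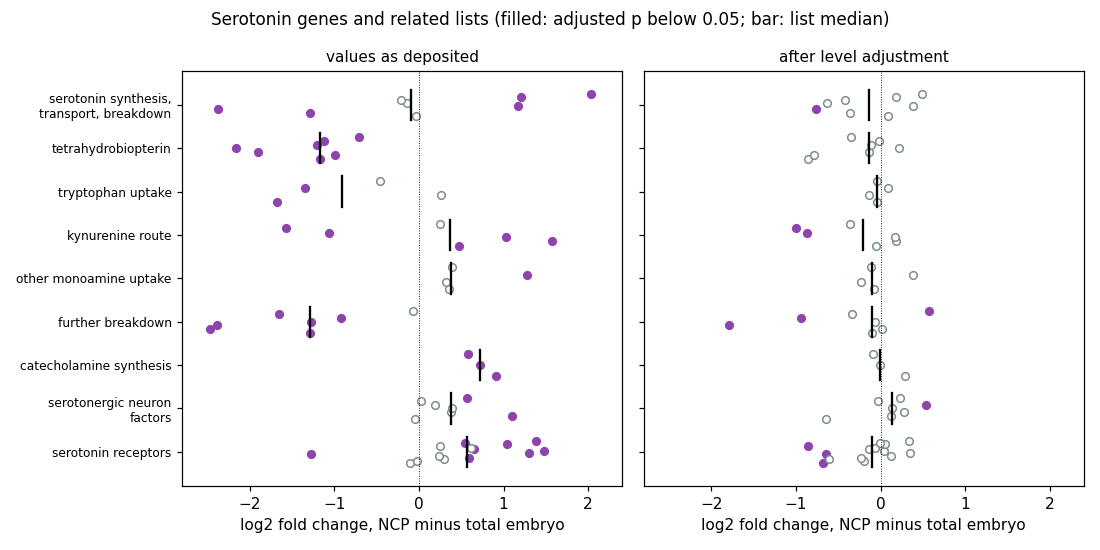
Log2 fold change of NCP over total embryo (horizontal axis) for each measured gene of the 8 serotonin genes and 8 related lists (rows), as deposited on the left and after level adjustment on the right. Filled points passed the test and bars are list medians. The 7 tetrahydrobiopterin genes are filled and below 0 on the left and open on the right.

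Cells that carry serotonin in other tissues were described by their markers. Of 9 mast cell markers 5 were lower and 2 higher, with mean log2 levels of 6.07 to 6.11 on NCP arrays and 5.99 to 6.37 on total embryo arrays, and of 5 platelet markers 3 were lower and 2 higher, at 5.89 to 6.61 in NCPs and 6.91 to 7.26 in total embryo. No mast cell or platelet marker was above the floor on all NCP arrays, as were 7.27% of all probe sets. On all total embryo arrays 7 of 9 and 5 of 5 were above it, as were 57.7% of all probe sets. Of the platelet markers, *Pf4* (-3.55), *Ppbp* (-1.59) and *Treml1* (-0.60) were lower, and *Itga2b* (0.93) and *Gp9* (0.90) higher. Of the mast cell markers, *Cpa3* (-2.55) and *Tpsab1* (-0.98) had the largest decreases, and *Mcpt2* (2.54) and *Fcer1a* (2.07) were the 2 that were higher. *Mcpt2* and *Fcer1a* averaged 3.75 and 3.49 in total embryo. Each was above the floor on 0 of 3 NCP arrays and 0 of 7 total embryo arrays. After level adjustment *Pf4* and *Cpa3* were lower and *Gp9* and *Mcpt2* higher. Of 6 enteroendocrine markers 3 were higher (*Insm1*, *Neurod1* and *Neurog3*) and 1 lower (*Chga* at -0.49), at 6.08 to 6.54 in NCPs and 5.76 to 6.16 in total embryo. *Insm1* alone was above the floor on all NCP arrays. After level adjustment *Insm1* was higher (1.27) and *Chga* lower (-0.62). The counts of these 3 lists are to be read against 39.6% of all probe sets higher and 27.5% lower. The part of these cells in the values of *Slc18a2*, *Slc6a4* and the other genes was not tested.

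The genes whose levels ran most like those of each changed gene were found by Pearson correlation over the 10 arrays, as a description. They were *Gm10636* (0.991) and *Tnfsf8* (0.988) for *Tph1*, *Olfr308* (0.997) and *Chat* (0.993) for *Tph2*, and *Pask* (0.986) and *Mir33* (0.985) for *Slc18a1*. For the oxidases they were *Cdkn3* (0.971) and *Sp140* (0.968) for *Maoa*, and *Epha4* (0.995) and *Me1* (0.992) for *Maob*. All arrays share the difference between the groups, and between 793 and 2608 genes exceeded 0.9 for each of these 5 genes.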

How the data were processed

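Affymetrix mouse Gene 1.0 ST arrays carried RNA of 3 NCP and 7 total embryo samples. The authors deposited log2 values from Affymetrix Expression Console 1.1, normalized by RMA (robust Multi-Array Average). The annotation build is not given in the sources used here. The paper names NuGEN amplification, where the labels name a GeneChip kit. RMA sets arrays to a common scale, which can leave differences in range.

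The table lists 34760 probe sets. After removal of 6568 controls, 28192 entered limma 3.58.1 in R 4.3.3 (lmFit, eBayes, Benjamini-Hochberg, threshold 0.05). Level adjustment used lowess with a span of 0.3. Level in total embryo enters both sides of the comparison with neighbours. Groups came from the labels. Replicate numbers only name arrays. Arrays have no read depth, so their number limits precision. The fits were run on simulated data with independent noise on each array. In the real arrays the correlation within title codes was estimated at 0.68, so that run was no check of the p-values. Python 3.11.15 drew the figures. Probe sets with 1 symbol numbered 21640, with several 1321 and with none 5231, and RefSeq names (GRCm38.p6) matched 21553.

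The members and lists were chosen with earlier results of these data known. Named genes were the 8 members, up to 2 increases and 2 decreases of each related list, lists of 3 or fewer whole, and the 2 genes most like each changed member. Other list genes named were chosen after their values were seen. Alternatives changed control arrays, blocks, scaling, filters, thresholds, test and probe set choice, and left out each array.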

Additional observations from a re-analysis of the deposited data

How the results depend on the processing

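Leaving out any 1 array kept 3 genes higher and 2 lower, and so did other total embryo arrays of 1 title code, averaging or blocking by title code or title series, median centring, another prior, array weights, an unmoderated test, a threshold of 0.01 and gene means. The count of higher genes was 0 against the single array with the NCPs' title ending, under cyclic loess, under centring on receptor families, under level adjustment and with dim probe sets left out, which removed *Tph1*, *Tph2* and *Slc18a1*. The count of lower genes was 0 against that single array, 4 under renewed quantile normalization, 7 under centring on receptor families and 1 under level adjustment. Under cyclic loess 3 were lower, *Slc6a4*, *Slc18a2* and *Maob*. Level adjustment combined with other choices, added after seeing the data, gave 0 higher genes in 4 of its 5 forms and 2 without NCP replicate 2. It gave 1 lower without NCP replicate 2 or 3, 2 without replicate 1 (*Slc18a2* and *Maob*) and 0 with arrays of the same title series or averaged per title code. Centring on receptor families, which put the median of all probe sets at -1.47, turned *Tph1* to -0.49 (adjusted p = 0.015) and *Slc18a1* to -0.52 (adjusted p = 0.035), and *Tph2* to 0.34 (adjusted p = 0.26).

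*Ddc*, near 0, changed sign to 0.0045 against the same title series and with the title series as a block, to 0.20 against the same title ending, to 0.094 under renewed quantile normalization, to 0.11 under cyclic loess and to 0.085 under level adjustment (0.20 without NCP replicate 1, 0.098 without replicate 2, 0.085 with the same title series and 0.085 averaged per title code). Leaving out 1 array gave -0.18 to 0.064 for *Ddc* and -0.41 to 0.064 for *Slc18a2*, which was positive without NCP replicate 2. The cause was not tested. Over all probe sets, 11158 were higher and 7747 lower, against 2903 and 2336 after level adjustment, 5761 and 4183 with arrays averaged per title code, 6370 and 5648 under renewed quantile normalization, 4777 and 4506 under cyclic loess, 10032 and 8557 under median centring, 1338 and 21976 under centring on receptor families, 3100 and 7558 without dim probe sets, 364 and 691 against the single array, and 7081 and 6225 of 19937 with 1 mean per gene. Level adjustment gave 327 and 89 with the same title series and 32 and 1 averaged per title code. The floor count in total embryo was 3 at the 99th percentile. No paired analysis was possible because the labels give no pairs of arrays, and replicate numbers only name arrays. Signal over the floor limits what the NCP arrays can show for these genes, and only 3 NCP arrays were available.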
